A study of Homo sapiens with 12 samples.

Results

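This account follows 37 genes of glycolysis and of the response to low oxygen in PC3 cells, an established line from a bone metastasis of human prostate cancer. The genes were listed by symbol for their known roles, with earlier results of these data known, and were looked up by Ensembl gene ID among the 60676 genes of the count table. They comprised 17 glycolytic enzymes, 4 transporters of glucose or lactate, 3 regulators of the pathway, 12 HIF targets without a direct role in glycolysis, and the HIF subunit HIF1A. Of the 37, 36 passed the filter of at least 10 counts summed over the 12 libraries. SLC2A3, a glucose transporter, had 1 count in all libraries and was not tested.

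Poly(A) RNA was sequenced from 4 groups of 3 biological replicates each. PC3 cells overexpressing SFRP2, a secreted modulator of WNT signalling, were cultured on a surface coated with collagen 1 (COL1-PC3 SFRP2) and compared with control PC3 cells on the same coating (COL1-PC3). The same 2 cell populations were also cultured on uncoated cell culture polystyrene, labelled Nunc and abbreviated CCP (CCP-PC3 SFRP2 and CCP-PC3). Both populations carried a Sleeping Beauty transposon with a red fluorescent protein and puromycin resistance, were selected with puromycin and sorted for high fluorescence, and no step of single-cell cloning is described. The control plasmid lacked the SFRP2 coding sequence. All flasks received 100000 cells and were harvested after 5 days in medium with serum. The labels name no exposure to low oxygen. The comparison of the groups asks how SFRP2 overexpression changes these genes on each surface, and how the collagen coating changes them in each population.

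Glycolysis converts glucose to pyruvate, and lactate dehydrogenase and the monocarboxylate transporters then turn pyruvate into lactate and carry it out of the cell. HIF-1, a dimer of HIF1A and ARNT, is stable when oxygen is low and then binds hypoxia response elements near many of the enzyme genes and near genes of angiogenesis, pH control, mitophagy and collagen hydroxylation. EGLN1 and EGLN3 are prolyl hydroxylases that mark HIF1A protein for degradation when oxygen is present. HIF1A activity is set mainly through its protein, which was not measured.

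The libraries held 5529459 to 9975972 counts. Library 3 of COL1-PC3 SFRP2 stood apart. Across 10571 genes its log2 CPM had a Pearson correlation of 0.84 and 0.89 with the other libraries of its group and of 0.57 to 0.73 with the other groups. Mitochondrial genes took 7.17% to 16.8% of the counts in COL1-PC3 SFRP2, against 19.8% to 24.0% in the remaining 9 libraries. A further deposited table holds a different column under the name of that library, called the substituted library here, which had correlations of 0.84 and 0.89 with the other libraries of the group and of 0.94 to 0.98 with the other 3 groups. Its mitochondrial share was 16.1%, within the range of COL1-PC3 SFRP2 and below that of the other groups. In that table, a column with the same total as the first one stands under the number 4, which no label carries. Which of the 2 columns belongs to the sample is not known, so the tests on COL1-PC3 SFRP2 were also run without the third library and with the substituted library. The GC correction was not run with the substituted library. The fold change of SFRP2 cells over control cells on COL1 also followed, across all genes, the GC content of the transcript. These fold changes were therefore also estimated after each library had been corrected for GC content and transcript length, which is called the GC correction here.

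The labels were checked by SFRP2 itself. It had 68155 to 158205 counts in the libraries labelled SFRP2, against 98 to 188 in the control libraries, and its log2 fold change was 9.95 ± 0.54 (SE) on COL1 and 9.93 ± 0.54 on CCP. With the substituted library the value on COL1 was 9.60. The epithelial markers KRT8, KRT18, KRT19 and EPCAM had 80.5 to 3063 counts scaled to each library's total (CPM) in all libraries, while KLK3, which encodes prostate-specific antigen, had at most 0.153. Of the fibroblast and leukocyte markers, COL1A1 had 6.72 to 15.6 and the other 7 at most 1.33.

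Short stretches before the start of 6 members show where the core letters of the hypoxia response element occur. The 37 members were not chosen by it, but a stretch could be shown only for a member with a match. SLC16A3, LDHB and P4HA2, also named in the results below, had 0 matches and are not shown. Among the promoters listed by RefSeq (GRCh38.p14), 32 of the 37 members were found. The core was searched as ACGTG or GCGTG on either strand in the 250 bases before the start, and overlapping matches were counted separately. It occurred before 20 of the 32 members (62.5%), and in 43.1% of all 27305 promoters of the same length. The stretches are given 5′ to 3′ on the strand of the gene, each 60 bases long, with the matches in capitals. LDHA and PGK1 are shown for their clusters of matches, and PFKL, PFKFB4, EGLN1 and HIF1A because results below turn on them.
LDHA (chr11:18394467-18394526, plus strand): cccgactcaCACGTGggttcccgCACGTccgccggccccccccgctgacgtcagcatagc
PGK1 (chrX:78104027-78104086, plus strand): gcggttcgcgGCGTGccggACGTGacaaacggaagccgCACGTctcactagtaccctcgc
PFKL (chr21:44299879-44299938, plus strand): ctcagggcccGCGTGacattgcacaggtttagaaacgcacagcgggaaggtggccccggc
PFKFB4 (chr3:48556920-48556979, minus strand): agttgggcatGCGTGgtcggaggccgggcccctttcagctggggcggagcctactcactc
EGLN1 (chr1:231422288-231422347, minus strand): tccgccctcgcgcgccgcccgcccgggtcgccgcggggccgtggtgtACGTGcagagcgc
HIF1A (chr14:61695299-61695358, plus strand): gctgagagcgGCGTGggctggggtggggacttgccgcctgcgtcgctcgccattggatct
In LDHA the palindrome cacgtg counts once for each strand. The core stood before 10 of 17 enzymes, 2 of 3 regulators, 7 of 9 HIF targets and 0 of 2 transporters in the table. LDHA had 5 matches and its paralog LDHB had 0. A match describes the letters only and was not tested for binding.

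On CCP, none of the 36 members was called in CCP-PC3 SFRP2 relative to CCP-PC3, beside 16 of 20364 genes called in all (0.0786%). None had an unadjusted p under 0.05 in edgeR's quasi-likelihood test, and DESeq2 also called 0. All 4 groups shared 1 estimate of the spread, so the uneven libraries of COL1-PC3 SFRP2 entered this test too. Without library 3 of COL1-PC3 SFRP2, 5 members had an unadjusted p under 0.05 in that test and 0 were called. With the GC correction added, 7 members had an unadjusted p under 0.05. The median log2 fold change was -0.08 over the members and -0.04 over all genes. Of the 17 enzymes, 15 had a negative sign, with a median of -0.16, and of the 12 HIF targets 7 had a positive sign, with a median of 0.07. In CPM, that is read counts scaled to library size with TMM factors, 12 of the 36 members had groups that did not overlap, 3 higher and 9 lower, beside 20.2% of all genes. The most negative value belonged to SLC2A1, the main glucose transporter of many epithelial cells. It had 66.9, 76.6 and 70.4 CPM in CCP-PC3 SFRP2, against 93.9, 96.2 and 91.8 CPM in CCP-PC3 (log2 fold change -0.40 ± 0.30, adjusted p = 1). The 2 groups did not overlap, and the adjusted p was 0.0153 when only these 2 groups were fitted. HIF1A had 1245, 1182 and 1290 CPM in CCP-PC3 SFRP2 and 1442, 1342 and 1494 CPM in CCP-PC3, a log2 difference of -0.20 ± 0.28 that did not pass.

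On COL1, 19 members rose and 5 fell in COL1-PC3 SFRP2 relative to COL1-PC3, and 12 were not called. Of all genes, 35.1% were called, 18.1% higher and 17.1% lower. In CPM, 20 members were higher and 7 lower with groups that did not overlap, beside 43.7% of all genes that did not overlap. The members that rose were the enzymes HK1, PFKL, PFKM, PFKP, ALDOC, TPI1, GAPDH, PGK1, PGAM1, ENO1, ENO2 and PKM, the transporter SLC16A3, the regulators PFKFB3 and PFKFB4, and the HIF targets VEGFA, NDRG1, EGLN1 and P4HA2. Those that fell were LDHB, SLC16A1, PDK1, BNIP3L and HIF1A. The median log2 fold change was 0.58 over the members and 0.01 over all genes. In bulk RNA, a change in the RNA of each cell and a change in the mix of cells in a flask cannot be told apart.

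**Figure D1:**
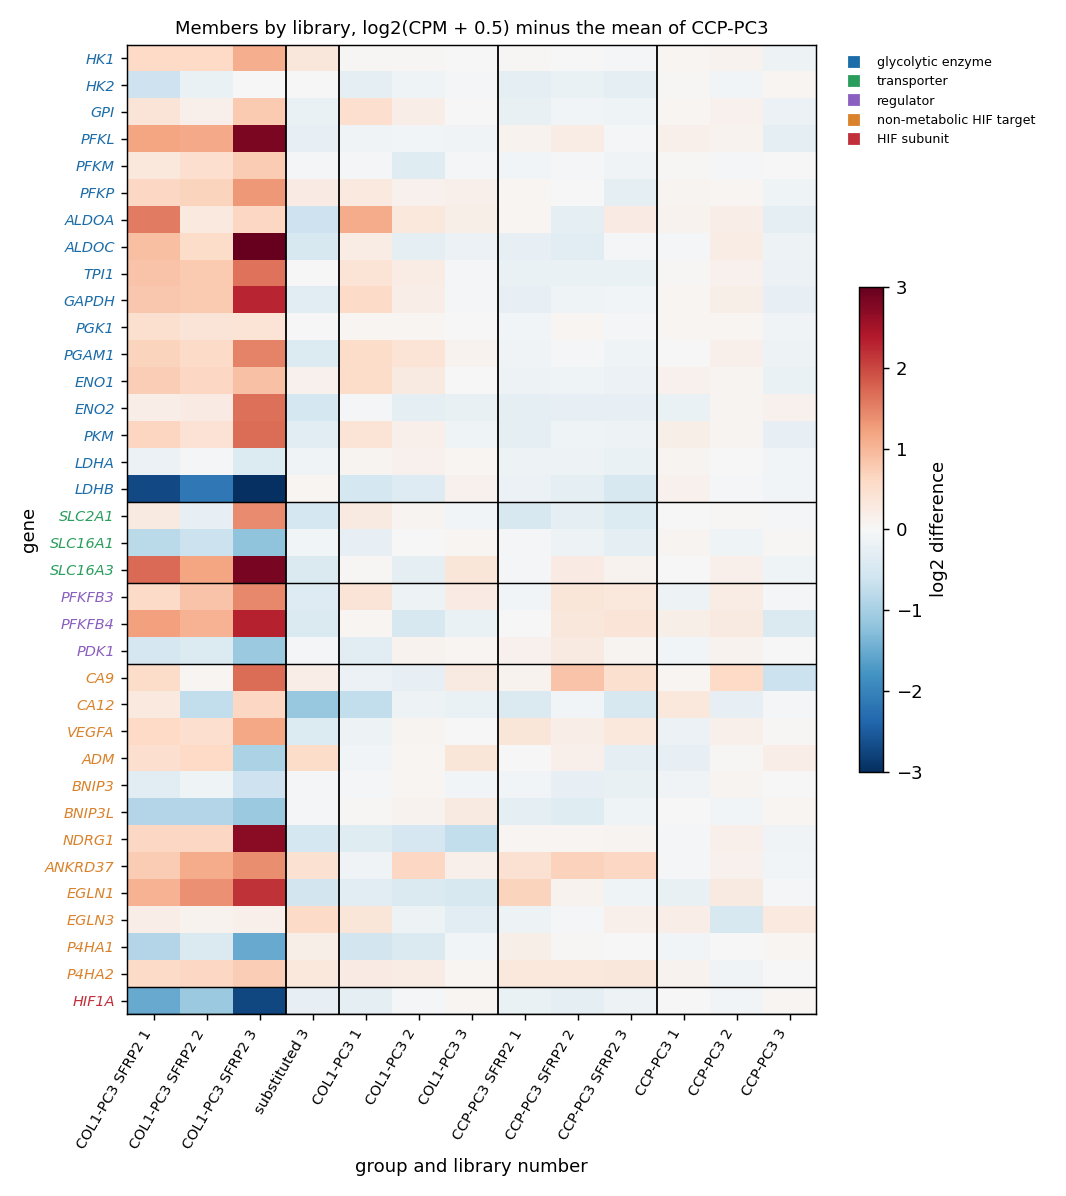
Heat map of 36 members (rows, coloured by role) in 13 library columns, as log2(CPM + 0.5) minus the mean of CCP-PC3. The 3 columns of COL1-PC3 SFRP2 hold nearly all strong colours, the third of them most, while the substituted library resembles the other groups.

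The calls on COL1 depended on the libraries and the correction. With the GC correction, 12 members were higher and 2 lower, beside 15.8% of all genes (8.06% higher, 7.76% lower), and 10 and 2 of these were shared with the uncorrected calls. Without the third library, 17 members were higher and 5 lower, beside 34.5% of all genes. With the substituted library, 0 of 36 passed (10 at an unadjusted p under 0.05), beside 1.09% of all genes. The 12 members called in the same direction with and without the GC correction were PFKL, PFKM, TPI1, PGK1, SLC16A3, PFKFB4, VEGFA, NDRG1, EGLN1 and P4HA2, which were higher, and LDHB and HIF1A, which were lower. Leaving out the third library with the GC correction kept these same 12, among 12 higher and 5 lower members, beside 20.1% of all genes.

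The fold changes of the members on COL1 moved with GC content as those of other genes did. With all genes divided into 10 bins by GC content, from the lowest bin to the highest the median log2 fold change was -1.28 to 1.24, over 10558 genes with a mean of at least 5 CPM. Spearman's correlation of GC content with the fold change was 0.85 across these genes and 0.70 across the 36 members, given as a description because genes of 1 library set share its base composition. After the correction it was 0.02 and 0.04. Median GC contents were 54.0% among the 17 enzymes and 46.7% among the 12 HIF targets, so the 2 classes sat on different parts of this trend. With the substituted library the medians at the lowest and highest GC content were -0.48 and 0.50. Whether base composition produced the differences was not tested.

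**Figure D2:**
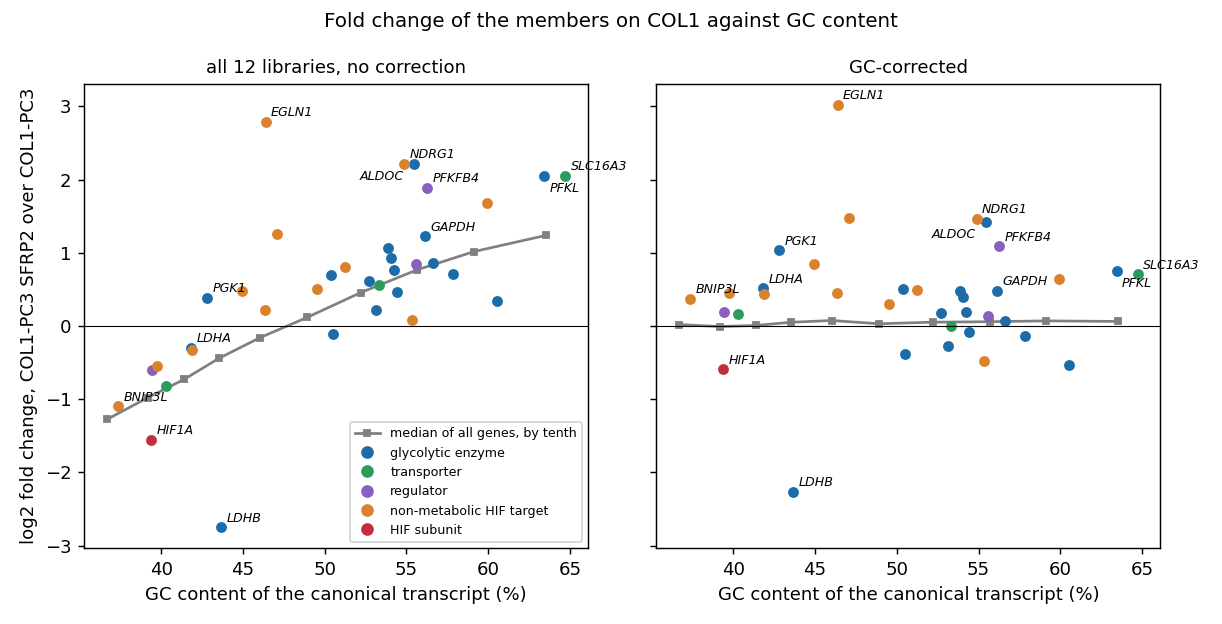
Log2 fold change of COL1-PC3 SFRP2 over COL1-PC3 for 36 members against the GC content of the canonical transcript in percent, before (left) and after (right) the GC correction, with the median of all genes binned by GC content as a grey line. PGK1, NDRG1, EGLN1 and PFKFB4 lie above the line in both panels, and LDHB and HIF1A below it.

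The calls left by the correction were counted separately for enzymes and HIF targets. Of the 17 enzymes, 12 were higher and 1 lower without the correction, with a median log2 fold change of 0.70, and 5 were higher and 1 lower with it, with a median of 0.18. Of the 12 HIF targets, 4 were higher and 1 lower without it, with a median of 0.49, and 5 were higher and 0 lower with it, with a median of 0.47. Beside these, 35.1% of all genes were called without and 15.8% with the correction, and their median was 0.01 without and 0.04 with it. When library 3 of COL1-PC3 SFRP2 was left out, the enzymes had 10 higher and 1 lower without the correction (median 0.43) and 5 higher and 3 lower with it (median 0.053). The HIF targets then had 4 higher and 1 lower without it (median 0.43) and 5 higher and 0 lower with it (median 0.37). No test compared the classes.

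Summed over the 17 enzymes, COL1-PC3 SFRP2 had 12599, 11940 and 23028 CPM, against 11240, 9678 and 8500 CPM in COL1-PC3. The groups did not overlap, and library 3 of COL1-PC3 SFRP2 held nearly as much as the other libraries of its group together. GAPDH made up 11166 CPM of it. Without GAPDH the sums were 8584, 8015 and 11862 CPM in COL1-PC3 SFRP2 and 7867, 7087 and 6300 CPM in COL1-PC3. Summed over the 12 HIF targets, COL1-PC3 SFRP2 had 420, 431 and 1000 CPM, against 364, 377 and 387 CPM in COL1-PC3. NDRG1 alone decided that order, because without it the sums were 242, 253 and 240 CPM in COL1-PC3 SFRP2, below the 275, 296 and 318 CPM in COL1-PC3. The sums on CCP were 7540 to 7948 CPM in CCP-PC3 SFRP2 and 7600 to 9198 CPM in CCP-PC3 for the enzymes.

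The first committed step of glycolysis is catalysed by phosphofructokinase, whose liver, muscle and platelet subunits are encoded by PFKL, PFKM and PFKP. PFKL (chr21:44300051-44327376, plus strand, GRCh38) had 89.4, 87.0 and 279 CPM in COL1-PC3 SFRP2, against 36.4, 37.0 and 36.6 CPM in COL1-PC3. All libraries of COL1-PC3 SFRP2 were above all others, and the third was about 3 times the rest of its group (highest over lowest library, 3.21). The log2 fold change was 2.05 ± 0.35 (adjusted p = 0.00105), 1.27 without the third library and 0.75 with the GC correction (adjusted p = 0.00570), which became 0.47 when that library was also left out. The substituted library had 33.0 CPM, below every library of COL1-PC3, and with it the value was 0.92 (adjusted p = 0.116). PFKM (chr12:48105139-48146404, plus strand) had 36.7, 41.9 and 50.1 CPM in COL1-PC3 SFRP2, against 28.1, 22.9 and 28.2 CPM in COL1-PC3. Its log2 fold change of 0.70 ± 0.18 (adjusted p = 0.00826) was 0.50 with the correction (adjusted p = 0.0138), and the substituted library had 28.6 CPM. PFKP was 0.71 ± 0.20 higher on the log2 scale and 0.46 higher without the third library, and the sign turned with the correction (-0.13, adjusted p = 0.501).

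In the middle of the pathway, triosephosphate isomerase TPI1 and phosphoglycerate kinase PGK1 rose with and without the correction. TPI1 (chr12:6867119-6870948, plus strand) had 305, 291 and 522 CPM in COL1-PC3 SFRP2, against 225, 196 and 165 CPM in COL1-PC3 (log2 fold change 0.93 ± 0.22, adjusted p = 0.00458). After correction the value was 0.40 (adjusted p = 0.0321). Without the third library TPI1 was at 0.61 uncorrected and 0.23 corrected (adjusted p = 0.0486). PGK1 (chrX:77910739-78129295, plus strand) had 805, 745 and 756 CPM in COL1-PC3 SFRP2, against 593, 601 and 574 CPM in COL1-PC3. In these uncorrected values the 2 groups did not overlap and varied little within each, and the third library did not stand apart. The log2 fold change was 0.38 ± 0.14 (adjusted p = 0.0481). PGK1 has a GC content of 42.8%, where other genes fell, and with the correction its value was 1.03 (adjusted p = 8.44e-05). The corrected levels were 1041, 856 and 1464 CPM in COL1-PC3 SFRP2, with the third library the highest. In COL1-PC3 they were 604, 555 and 484 CPM. The adjusted p was above 0.05 in 15 of the 22 alternative settings, all of them without the GC correction. Among them were the fits without any 1 library of the other groups (0.0620 to 0.112), so the uncorrected call sits at the threshold. PGK1 passed in each setting that included the GC correction. In the substituted library PGK1 was at 578 CPM.

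Glyceraldehyde-3-phosphate dehydrogenase, GAPDH, is often used as a constant reference gene. It had 4015, 3925 and 11166 CPM in COL1-PC3 SFRP2, against 3374, 2591 and 2200 CPM in COL1-PC3 (log2 fold change 1.23 ± 0.32, adjusted p = 0.00846). The groups did not overlap, and the third library decided much of the size, since the value was 0.55 without it. GAPDH did not pass with the GC correction (0.48, adjusted p = 0.158), and the substituted library had 1809 CPM. The annotation names 65 pseudogenes after GAPDH, and reads shared with them could not be separated.

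The remaining enzymes that rose without the correction did not pass with it. HK1, the hexokinase of most tissues, had a log2 fold change of 0.76, ENO1 and ENO2, the enolases, 0.46 and 1.07, pyruvate kinase PKM 0.86, phosphoglycerate mutase PGAM1 0.61 and the aldolase ALDOC 2.21. Corrected values were 0.18, -0.08, 0.48, 0.07, 0.18 and 1.43 (adjusted p of 0.120 to 0.780). ALDOC had 14.7, 11.3 and 75.3 CPM in COL1-PC3 SFRP2, against 8.92, 6.16 and 6.66 CPM in COL1-PC3, so that 1 library held most of its counts. Without library 3 the uncorrected value was 0.87 for ALDOC and 0.39 for PKM. ENO2 (0.43, adjusted p = 0.0526) and PGAM1 (0.27, adjusted p = 0.141) then did not pass. HK2, the hexokinase induced in many tumours, GPI, ALDOA and LDHA were not called, with log2 fold changes of -0.11, 0.21, 0.34 and -0.30. ALDOA varied within each group, with 63.8, 26.0 and 32.7 CPM in COL1-PC3 SFRP2 and 46.7, 26.5 and 24.0 CPM in COL1-PC3. Of the exon bases of ALDOA, 54.2% also belong to other counted genes, and the one on the same strand had 67 counts in all libraries beside 2454 of ALDOA.

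**Figure D3:**
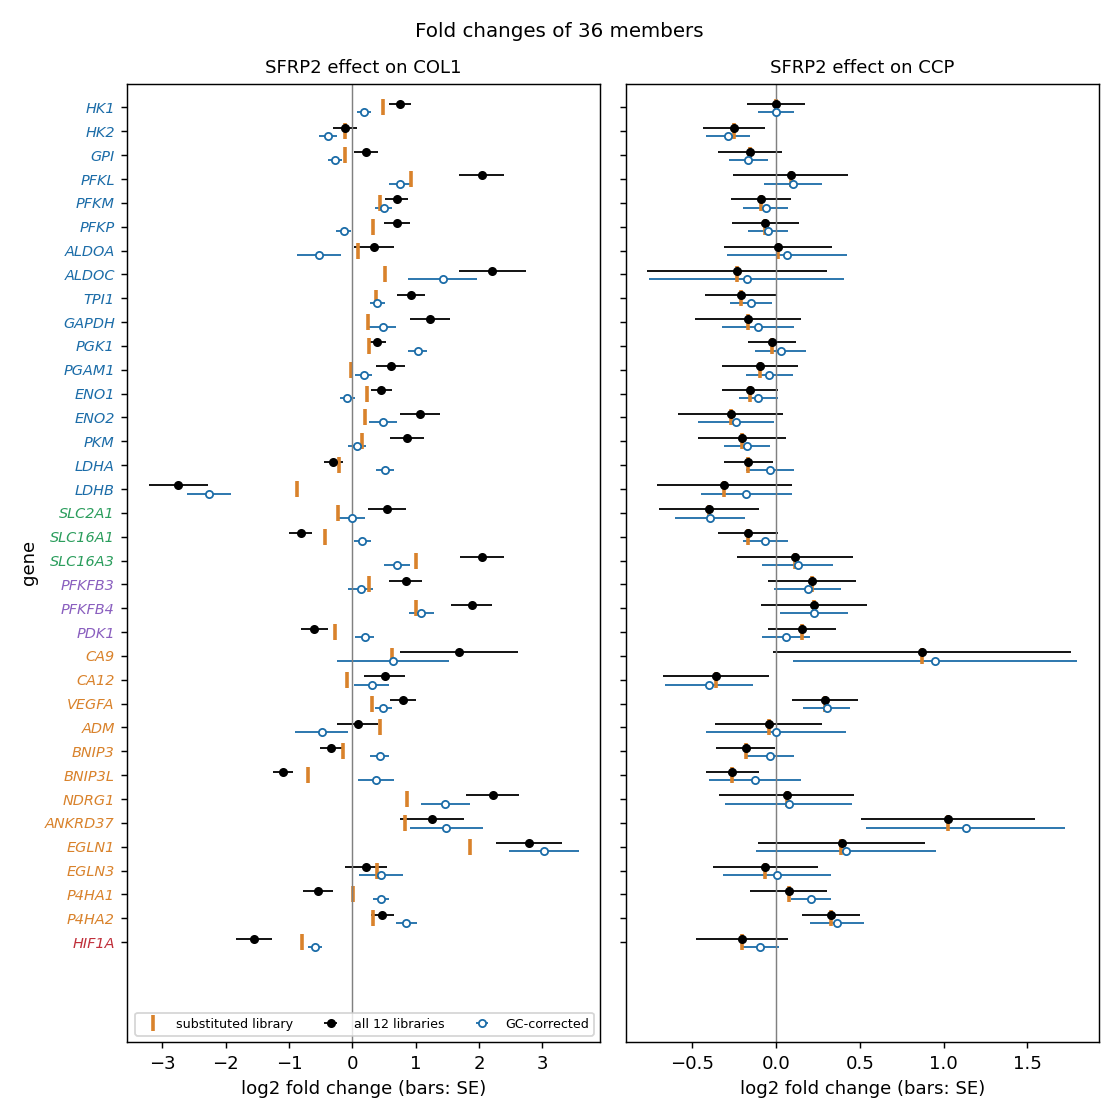
Log2 fold changes with standard errors of 36 members for SFRP2 cells over control cells on COL1 (left) and on CCP (right), from all 12 libraries, with the GC correction, and as a bar mark with the substituted library. Without the correction, the values from all 12 libraries lie between -0.40 and 1.03 on CCP and between -2.75 and 2.79 on COL1.

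Lactate dehydrogenase is a tetramer of LDHA and LDHB subunits, and the LDHB form favours the use of lactate. LDHB (chr12:21635342-21757857, minus strand) was the enzyme with the greatest change. It had 36, 57 and 2 counts in COL1-PC3 SFRP2, against 150, 195 and 396 counts in COL1-PC3, or 5.69, 8.72 and 0.399 CPM against 27.9, 30.8 and 43.95 CPM. All COL1-PC3 SFRP2 libraries were below all other libraries of the study, which had 27.9 to 43.95 CPM. The log2 fold change was -2.75 ± 0.46 (adjusted p = 0.000959), -2.25 without the third library and -2.26 with the GC correction (adjusted p = 0.000847). The substituted library had 42.0 CPM, and with it the value was -0.87 (adjusted p = 0.324). Of the exon bases of LDHB, 33.4% also belong to another annotated gene on the same strand, which had 0 counts. The annotation names 3 pseudogenes after LDHB.

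The counts of LDHB also depended on which deposited set was used. A further set of counts, called the second alignment here, was deposited for 11 of the libraries, all but library 3 of COL1-PC3 SFRP2. How its processing differed is not given in the sources used. LDHB had 617 counts in it, where the main set had 2664 in the same libraries. In it COL1-PC3 SFRP2 had 15 and 33 counts, against 33, 42 and 85 in COL1-PC3, so that the groups touched before scaling, and the log2 fold change was -1.003 (adjusted p = 0.00850). There LDHB also fell on CCP, by 0.94 on the log2 scale (adjusted p = 0.0171). PGAM1, which has 13 named pseudogenes, had 568 counts where the main set had 5748, and its log2 fold change on COL1 was -0.13. For the other tested members the second alignment had 0.968 to 1.28 times the counts of the main set.

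LDHA differed less. It had 1654, 1799 and 1409 CPM in COL1-PC3 SFRP2, against 1982, 2054 and 1947 CPM in COL1-PC3. The groups did not overlap, but the log2 fold change of -0.30 ± 0.15 did not pass (adjusted p = 0.128). LDHA has a GC content of 41.8%, and with the correction it was 0.51 higher (adjusted p = 0.0175), so that its direction turned. Without library 3 the corrected value of LDHA was 0.27 (adjusted p = 0.0126).

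Lactate leaves the cell through the monocarboxylate transporters SLC16A1 and SLC16A3, of which SLC16A3 is the HIF-responsive exporter of glycolytic cells. SLC16A3 (chr17:82217934-82261129, plus strand) had 37.1, 25.7 and 83.5 CPM in COL1-PC3 SFRP2, against 11.3, 9.003 and 14.5 CPM in COL1-PC3. The groups did not overlap (log2 fold change 2.05 ± 0.35, adjusted p = 0.000959). The value was 1.42 without the third library and 0.71 with the GC correction (adjusted p = 0.0190). In the substituted library it was 8.07 CPM. SLC16A1 had 103, 115 and 77.7 CPM in COL1-PC3 SFRP2, against 152, 181 and 186 CPM in COL1-PC3 (log2 fold change -0.82 ± 0.18, adjusted p = 0.00337). With the correction the sign turned (0.16, adjusted p = 0.483), and the GC contents of the 2 transporters were 64.7% for SLC16A3 and 40.3% for SLC16A1. SLC2A1 had 113, 79.7 and 250 CPM in COL1-PC3 SFRP2, against 114, 99.03 and 88.9 CPM in COL1-PC3, with overlapping groups and no call.

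Of the regulators, PFKFB3 and PFKFB4 make fructose 2,6-bisphosphate, the activator of phosphofructokinase, and PDK1 inhibits pyruvate dehydrogenase. PFKFB4 (chr3:48517684-48562015, minus strand) had 24.5, 21.6 and 52.1 CPM in COL1-PC3 SFRP2, against 10.6, 7.11 and 8.77 CPM in COL1-PC3. No library overlapped, and the log2 fold change was 1.89 ± 0.33 (adjusted p = 0.00105), 1.40 without the third library and 1.09 with the GC correction (adjusted p = 0.000681). In the substituted library it was 7.41 CPM. PFKFB3 rose by 0.85 on the log2 scale, and PDK1 fell by 0.60. With the correction neither passed (0.13 and 0.19, adjusted p of 0.710 and 0.441), and PDK1 then had a positive sign.

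Among the HIF targets without a direct role in glycolysis, EGLN1 had the greatest fold change, at a low level. EGLN1 (chr1:231363751-231422287, minus strand) had 14, 19 and 27 counts in COL1-PC3 SFRP2, against 3, 3 and 4 counts in COL1-PC3, or 2.21, 2.91 and 5.39 CPM against 0.558, 0.474 and 0.444 CPM. The groups did not overlap, and the substituted library had 0.397 CPM. On the log2 scale it rose by 2.79 ± 0.51 (adjusted p = 0.00138), 2.37 without the third library and 3.02 with the GC correction (adjusted p = 0.000579). Of its exon bases 55.8% also belong to another annotated gene, which had 0 counts, and with 117 counts of EGLN1 in all libraries the value rests on few reads. EGLN3, its paralog and a strongly induced HIF target in many cells, had 3.79, 3.52 and 3.59 CPM in COL1-PC3 SFRP2 and 4.28, 2.84 and 2.44 CPM in COL1-PC3, with overlapping groups and a log2 fold change of 0.22 ± 0.33.

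NDRG1, a stress-induced gene that responds to hypoxia, had 179, 178 and 760 CPM in COL1-PC3 SFRP2, against 89.6, 81.2 and 69.3 CPM in COL1-PC3. The third library was more than 4 times the others of its group, and even these were above all libraries of the study outside it, which had 69.3 to 130 CPM. On the log2 scale it rose by 2.22 ± 0.42 (adjusted p = 0.00161), 1.17 without the third library and 1.47 with the GC correction (adjusted p = 0.0342), which became 0.75 when that library was also left out. The substituted library had 79.8 CPM, and the value with it was 0.86 (adjusted p = 0.0922). VEGFA, the main angiogenic growth factor (chr6:43770184-43786487, plus strand), had 50.2, 46.9 and 73.7 CPM in COL1-PC3 SFRP2, against 29.6, 34.9 and 33.3 CPM in COL1-PC3. It rose by 0.80 ± 0.20 on the log2 scale (adjusted p = 0.00669) and by 0.49 with the correction (adjusted p = 0.0185), and the substituted library had 24.5 CPM.

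P4HA1 and P4HA2 encode the catalytic subunits of the enzyme that hydroxylates proline in collagen. P4HA2 (chr5:132190147-132295315, minus strand) had 26.7, 27.5 and 30.3 CPM in COL1-PC3 SFRP2, against 21.2, 21.0 and 18.6 CPM in COL1-PC3, and the substituted library had 22.5 CPM. The groups did not overlap, and the log2 fold change was 0.48 ± 0.18 (adjusted p = 0.0459) and 0.85 with the correction (adjusted p = 0.000989). As for PGK1, the uncorrected value missed 0.05 without any 1 library of the other groups (0.0572 to 0.142). P4HA1 had 34.6, 47.6 and 22.2 CPM in COL1-PC3 SFRP2, against 43.9, 47.7 and 60.6 CPM in COL1-PC3. Its log2 fold change was -0.54 ± 0.23 (adjusted p = 0.0850) and, with the correction, 0.45 (adjusted p = 0.0186), a change of direction.

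BNIP3 and BNIP3L direct the removal of mitochondria. BNIP3L had 62.4, 62.4 and 53.5 CPM in COL1-PC3 SFRP2, against 118, 124 and 139 CPM in COL1-PC3, with no overlap (log2 fold change -1.10 ± 0.16, adjusted p = 0.000576). At a GC content of 37.4%, the lowest of the members, the corrected value was 0.37 and did not pass (adjusted p = 0.442). The positive sign rested on library 3 of COL1-PC3 SFRP2, since without it the corrected value of BNIP3L was -0.12 (adjusted p = 0.472). BNIP3 had 34.1, 39.3 and 27.6 CPM in COL1-PC3 SFRP2 and 41.8, 44.9 and 40.8 CPM in COL1-PC3 and was not called (-0.33 ± 0.18, adjusted p = 0.165). In the second alignment BNIP3, which has 44 named pseudogenes, was lower (-0.57, adjusted p = 0.00215). The carbonic anhydrases CA9 and CA12, the vasodilator peptide gene ADM and ANKRD37 were not called with or without the correction. CA9, one of the most HIF-dependent genes known, had 4, 2 and 10 counts in COL1-PC3 SFRP2, against 1, 1 and 4 in COL1-PC3, and at most 7 counts in any library on CCP. ADM had 15.01, 16.1 and 5.19 CPM in COL1-PC3 SFRP2, against 9.85, 10.9 and 13.5 CPM in COL1-PC3, and here the third library went against the others of its group.

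HIF1A (chr14:61695513-61748259, plus strand) was among the more abundant members and fell. It had 499, 660 and 215 CPM in COL1-PC3 SFRP2, against 1163, 1380 and 1492 CPM in COL1-PC3. All 3 libraries were below every other library of the study, of which the lowest had 1163 CPM. On the log2 scale the change was -1.55 ± 0.28 (adjusted p = 0.00130) and -1.21 without the third library. HIF1A has a GC content of 39.4%, and the GC correction left -0.59 (adjusted p = 0.000844). The substituted library had 1193 CPM, within the range of the other groups, and with it the value was -0.79 (adjusted p = 0.108). The HIF1A transcript was lower in the libraries where PFKFB4, SLC16A3, NDRG1 and EGLN1 were higher. Without the correction, PDK1 and BNIP3L were called lower in the same comparison. CA9, CA12, ADM, BNIP3, ANKRD37, EGLN3 and P4HA1 were not called in it. The HIF1A protein was not measured.

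**Figure D4:**
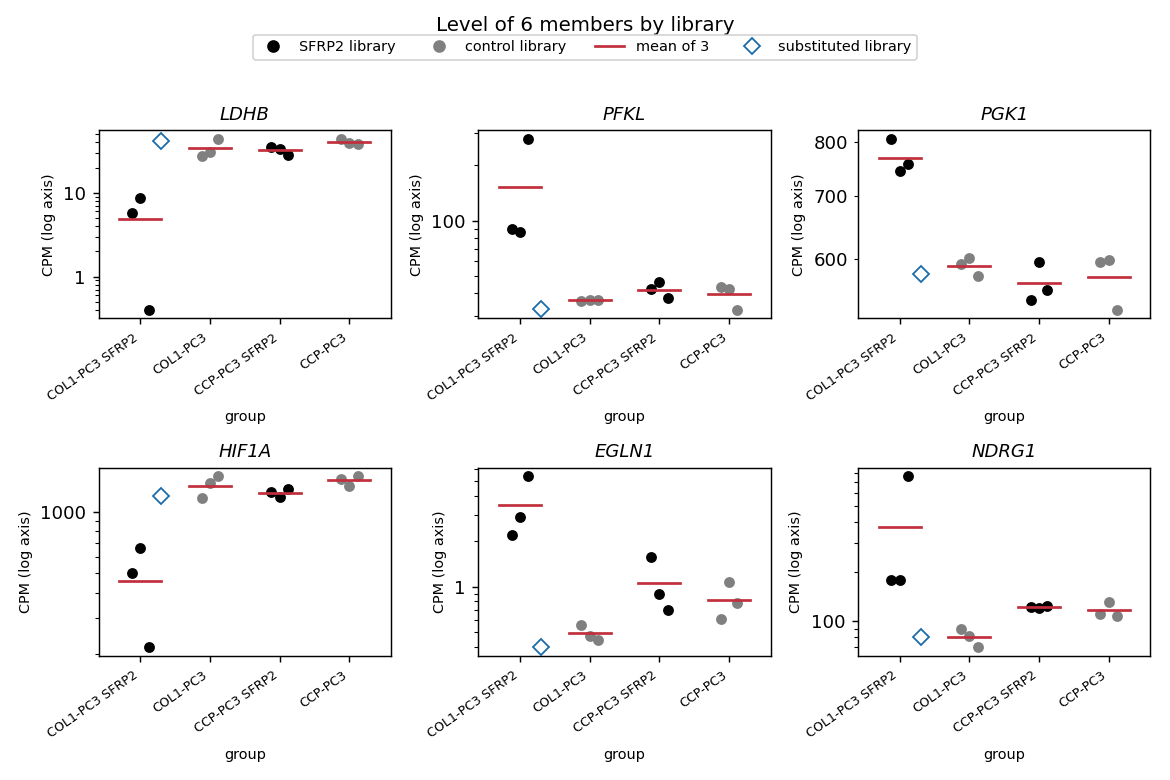
CPM on a log axis of LDHB, PFKL, PGK1, HIF1A, EGLN1 and NDRG1 in each library of the 4 groups, with the mean of 3 libraries as a line and the substituted library as an open diamond. In each panel the 3 libraries of COL1-PC3 SFRP2 lie outside the range of COL1-PC3, while the diamond lies within the range of the other 3 groups or close to it.

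With the collagen coating alone, none of the 36 members was called in COL1-PC3 relative to CCP-PC3. Of all genes, 0 of 20364 were called (0%), and none of the members had an unadjusted p under 0.05. DESeq2 also called 0 members. Without library 3 of COL1-PC3 SFRP2, a group outside this comparison, 5 members had an unadjusted p under 0.05 in the quasi-likelihood test. With the GC correction added there were 8. The median log2 fold change of the members was 0.00. NDRG1 had 89.6, 81.2 and 69.3 CPM in COL1-PC3, against 111, 130 and 108 CPM in CCP-PC3, with no overlap and a log2 fold change of -0.54 ± 0.41 (adjusted p = 1.00). Its adjusted p was 0.0271 once library 3 of the COL1-PC3 SFRP2 group had been left out.

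In PC3 SFRP2 cells the coating went with 20 higher and 6 lower members, beside 37.6% of all genes (19.9% higher, 17.7% lower). This comparison of COL1-PC3 SFRP2 with CCP-PC3 SFRP2 shares its first group with the comparison on COL1, so the 2 sets of calls are not independent. LDHB had 5.69, 8.72 and 0.399 CPM in COL1-PC3 SFRP2, against 35.4, 33.3 and 28.7 CPM in CCP-PC3 SFRP2 (log2 fold change -2.67 ± 0.46, adjusted p = 0.000927). HIF1A fell by 1.43 on the log2 scale and PFKL rose by 1.85. GPI, ALDOA and SLC2A1 were called higher here (0.62, 0.92 and 1.05) and P4HA1 lower (by 0.96), while VEGFA and P4HA2 did not pass (adjusted p = 0.0623 and 0.156). After the GC correction 9 members were higher and 2 lower, beside 14.4% of all genes (7.56% higher, 6.84% lower). The 2 lower ones were LDHB and HIF1A, at -2.30 and -0.44. In the second alignment LDHB did not pass (-0.60, adjusted p = 0.134). Without library 3 of COL1-PC3 SFRP2 and without the correction, SLC2A1 was at 0.44 and ALDOA, PFKFB3 and EGLN1 did not pass (adjusted p = 0.0768, 0.0518 and 0.0555). With the substituted library 0 passed (12 at an unadjusted p under 0.05), beside 0.0196% of all genes.

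The effect of SFRP2 differed between the surfaces for 7 of the 36 members, beside 6.32% of all genes (3.79% with a more positive and 2.53% with a more negative effect on COL1), in a test of the interaction itself. The effect was more positive on COL1 for PFKL (log2 difference 1.96), TPI1 (1.14), SLC16A3 (1.94), PFKFB4 (1.66) and NDRG1 (2.15), and more negative for LDHB (-2.44) and BNIP3L (-0.83). The adjusted p values were 0.0395 to 0.0461, all near the threshold. No member passed once any 1 of the 6 CCP libraries, or library 2 or 3 of COL1-PC3, was left out, while leaving out library 3 of COL1-PC3 SFRP2 gave more calls: 14 were higher and 5 lower, beside 20.1% of all genes. After the GC correction 1 was higher and 1 lower, beside 2.49% of all genes (0.884% higher, 1.61% lower), and LDHB was shared (-2.09, adjusted p = 0.0294). In the second alignment the difference for LDHB was -0.066 (adjusted p = 0.935), so that its call was lost there, while the other 6 members were called.

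Paralogs were compared per kilobase of the canonical transcript, so that their levels can be set against each other. LDHA exceeded LDHB by 169, 120 and 2051 times in COL1-PC3 SFRP2, against 41.3, 38.8 and 25.8 times in COL1-PC3. With only 2 counts of LDHB in library 3, its ratio has no useful precision, and the substituted library had a ratio of 24.3. On CCP the ratio was 27.8 to 33.1 in CCP-PC3 SFRP2 and 26.4 to 27.9 in CCP-PC3. SLC16A1 exceeded SLC16A3 by 1.92 and 3.09 times in the first libraries of COL1-PC3 SFRP2, and in the third the order was turned with a ratio of 0.644, against 9.31, 13.9 and 8.86 in COL1-PC3. The ratio of HK1 to HK2 was 9.03, 6.71 and 8.10 in COL1-PC3 SFRP2, against 4.77, 4.28 and 3.96 in COL1-PC3, with no overlap and 4.795 in the substituted library. ENO1 exceeded ENO2 by 44.7 to 113 times in COL1-PC3 SFRP2 and by 92.7 to 119 times in COL1-PC3, which overlapped. The ratio of ALDOA to ALDOC was 4.26, 2.25 and 0.427 in COL1-PC3 SFRP2 and 5.13, 4.22 and 3.53 in COL1-PC3, with overlap. The ratios were not corrected for GC content.

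**Figure D5:**
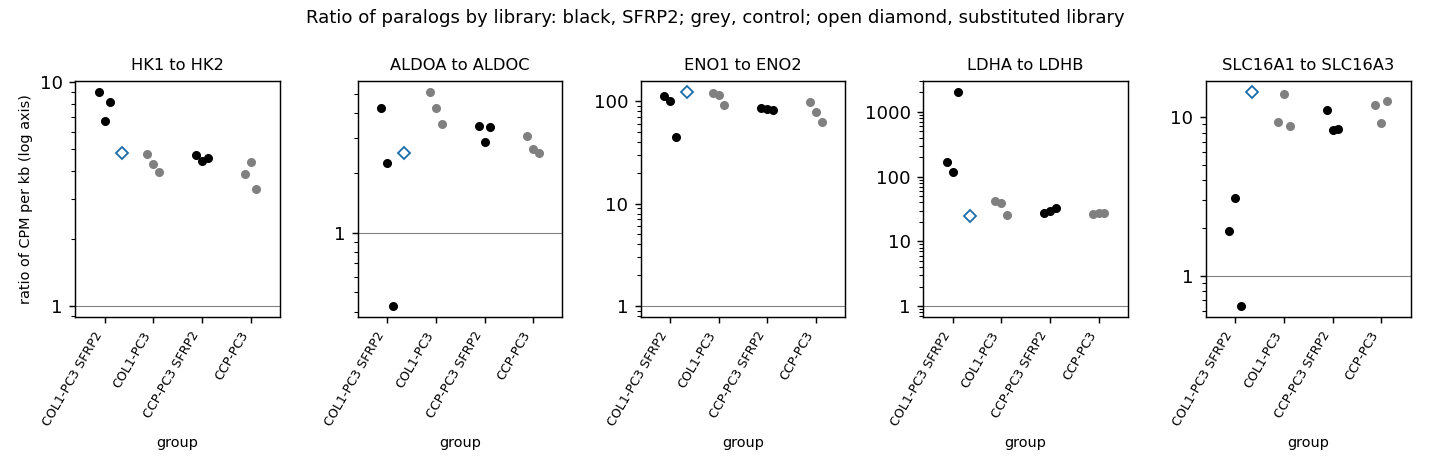
Ratio of the CPM per kilobase of 5 pairs of paralogs in each library of the 4 groups, on a log axis, with the substituted library as an open diamond. The ratios of LDHA to LDHB and of HK1 to HK2 are higher, and that of SLC16A1 to SLC16A3 lower, in all 3 libraries of COL1-PC3 SFRP2 than in any other library, and the diamond lies near the other groups.

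Averaged over the 12 libraries and per kilobase, GAPDH was the most abundant member with 2612 CPM per kilobase, followed by ENO1 with 875, PKM with 842 and LDHA with 799. HIF1A was the fifth with 283, above TPI1 with 164. The HIF targets ranged from 57.0 for NDRG1 to 0.339 for EGLN1.

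Other genes of sugar metabolism were counted in the same way. Of 43 listed genes of glycolysis, pyruvate metabolism and the pentose phosphate pathway, 38 were tested, and on COL1 12 were higher, 9 lower and 17 not called, with a median log2 fold change of 0.16. After the GC correction 11 were higher and 1 lower, with a median of 0.23. Of all genes 35.1% were called without and 15.8% with the correction. On CCP 0 were called without the correction and 1 with it, SLC16A7, a monocarboxylate transporter (log2 fold change 0.84, adjusted p = 0.0211). The 5 genes that kept their direction and call with and without the correction were all higher, namely PCK2, TKT, SLC2A10, TALDO1 and PDHA1. DLAT and RPE were called in opposite directions. Their log2 fold changes were -0.55 and -0.83 without the correction and 0.45 and 0.57 with it. PCK2, mitochondrial phosphoenolpyruvate carboxykinase, had 26.8 ± 12.4 CPM in COL1-PC3 SFRP2 and 8.57 ± 0.62 CPM in COL1-PC3 (SD, n = 3 each; log2 fold change 1.64 ± 0.28, adjusted p = 0.00103), and its corrected value was 0.69. TKT, transketolase of the pentose phosphate pathway, had 862 ± 468 CPM in COL1-PC3 SFRP2 and 316 ± 60.4 CPM in COL1-PC3 (log2 fold change 1.45, adjusted p = 0.00197), with a corrected value of 0.54. SLC2A10, a sugar transporter, had 28.9 ± 15.6 CPM in COL1-PC3 SFRP2 and 12.7 ± 2.15 CPM in COL1-PC3 (log2 fold change 1.18, adjusted p = 0.00737), with a corrected value of 0.97.

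Of 40 further HIF pathway genes and targets, 37 were tested. On COL1 9 were higher, 4 lower and 24 not called, with a median log2 fold change of 0.18, and with the GC correction 5 were higher and 0 lower, with a median of 0.28. These counts stand beside 35.1% of all genes without and 15.8% with the correction, and the share called in the list was close to that of all genes. On CCP 0 were called with or without the correction. Called higher in both were PLOD1, a lysyl hydroxylase of collagen, DDIT4, an inhibitor of mTORC1, and HIF1AN, the asparaginyl hydroxylase that restrains HIF. PLOD1 had 131 ± 65.2 CPM in COL1-PC3 SFRP2 and 47.4 ± 9.94 CPM in COL1-PC3 (SD, n = 3 each; log2 fold change 1.46 ± 0.28, adjusted p = 0.00155), and its corrected value was 0.51. HIF1AN had 39.7 ± 7.35 CPM in COL1-PC3 SFRP2 and 25.2 ± 3.0 CPM in COL1-PC3 (log2 fold change 0.66, adjusted p = 0.0214), with a corrected value of 0.60. DDIT4 had 2.15 ± 0.98 CPM in COL1-PC3 SFRP2 and 0.195 ± 0.248 CPM in COL1-PC3, a level of few reads (log2 fold change 3.34 ± 0.80, adjusted p = 0.00552), with a corrected value of 2.48. With the substituted library 0 genes of both lists passed.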

How the data were processed

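Gene counts of 12 libraries, 3 in each of 4 groups, were analysed as the authors deposited them. Per the labels and the study's methods, the libraries were made with a Lexogen SENSE mRNA-Seq kit and aligned with STAR to GRCh38 with the Ensembl release 101 annotation. The counting tool and its strand setting are not given in the sources used here, so overlapping genes and pseudogenes could not be separated. The deposited counts are whole reads per gene and not normalized. Used were 3 of the 5 deposited files: the main file, one whose library 3 of COL1-PC3 SFRP2 differs (the substituted library), and a further set of counts of 11 libraries. That set is called the second alignment here, and how its processing differed is not given. The other files hold the same libraries again and, under CCP-PC3 names, columns with other totals, and were not used. Not used either were 7 libraries numbered 4 or 5, which match no label.

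Genes whose counts over all 12 libraries summed to 10 or more (20364 of 60676) were tested with edgeR 4.0.16 in R 4.3.3, using TMM scaling, robust dispersion, the quasi-likelihood test and Benjamini-Hochberg adjustment over all genes, with a threshold of 0.05. All 4 groups entered 1 fit. CPM values are TMM-scaled. Standard errors (SE) of log2 fold changes were back-calculated, as the absolute log2 fold change divided by the square root of the quasi-likelihood F statistic. The GC correction was an offset for each library from a robust regression (MASS) on splines with 4 degrees of freedom each for GC content and length of the canonical transcript (GENCODE 44), fitted on genes with a mean of at least 1 CPM and available for 20280 tested genes. Alternatives were DESeq2 1.42.0, its size factors, no filter, a replicate block, the GC correction with and without that block or library 3 of COL1-PC3 SFRP2, the substituted library, the second alignment, only the groups compared, and each library left out. The fits were tested on simulated data with the same spread for all genes. Where a GC trend was built in, it was linear and the same in all libraries of COL1-PC3 SFRP2. The uncorrected fit then made many false calls on COL1, and the GC-corrected fit did not. In the data, library 3 of that group stood apart, so the simulation cannot decide how well the correction works on these libraries. The labels call the libraries biological replicates, and according to the methods each experiment was run in triplicate and repeated; which repeat each library came from is not given in the sources used here, so p-values measure the spread between these libraries. All members were named. Full values by library were given to those called on COL1 with and without the GC correction, and other members were described by role. The members and lists were chosen with earlier results of these data known.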

Additional observations from a re-analysis of the deposited data

Results flagged for a closer look

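For 7 members the SFRP2 effect differed between the surfaces in a test of the interaction (edgeR's quasi-likelihood test, Benjamini-Hochberg adjustment over all genes). The log2 fold change on COL1 minus that on CCP was 1.96 for PFKL, 1.14 for TPI1, -2.44 for LDHB, 1.94 for SLC16A3, 1.66 for PFKFB4, -0.83 for BNIP3L and 2.15 for NDRG1, with adjusted p values of 0.0395 to 0.0461. None of them was called under the replicate block or after the substitution of library 3. With the GC correction LDHB was called alone among them (-2.09, adjusted p = 0.0294), and the value of BNIP3L was 0.50, of the opposite sign. That value was 0.00741 when library 3 of COL1-PC3 SFRP2 was also left out. In the second alignment LDHB lost its call (-0.066, adjusted p = 0.935).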

How the results depend on the processing

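On CCP 1 member was lower in the GC correction lacking library 3 (SLC2A1), 1 in the second alignment (LDHB) and 1 with only the 2 groups compared (SLC2A1), against 0. On COL1 the 19 higher and 5 lower members became 12 and 2 with the GC correction, 10 and 2 with the GC correction and replicate block, 12 and 5 with the GC correction lacking library 3, 0 and 0 with the substituted library, and 5 and 3 with only the 2 groups compared. Leaving out each library gave 10 to 19 higher and 4 to 6 lower. Between COL1-PC3 and CCP-PC3 1 member was lower in the GC correction lacking library 3 and 1 in the second alignment (NDRG1 in both), and 0 to 1 without each library. Between COL1-PC3 SFRP2 and CCP-PC3 SFRP2 the 20 higher and 6 lower became 9 and 2 with the GC correction, 7 and 2 with the block added, 8 and 2 lacking library 3, 0 and 0 with the substituted library and 12 and 6 with only the 2 groups, and 14 to 21 and 6 to 6 without each library. For the difference between surfaces the 5 higher and 2 lower became 15 and 5 with DESeq2, 9 and 3 with no filter, 0 and 0 with the replicate block, 1 and 1 with the GC correction, 1 and 0 with the block added, 3 and 2 lacking library 3, 0 and 0 with the substituted library and 15 and 4 in the second alignment, and 0 to 15 and 0 to 6 without each library. It could not be run with only 2 groups.

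The replicate block gave 15 higher and 5 lower members on COL1, and 20 and 6 between the surfaces in PC3 SFRP2 cells. For libraries with the same replicate number, the correlation of their deviations from the group means was -0.57 to 0.53. These values cannot decide whether such libraries shared a repeat, because each mean held few libraries and library 3 of COL1-PC3 SFRP2 stood apart. No pairing was used in the main fit. Of the single values, 892 kept direction and call, 321 kept direction and lost the call and 34 turned. For the SFRP2 effect on COL1 the values that turned with the GC correction were -0.13 (PFKP), -0.077 (ENO1), 0.16 (SLC16A1), 0.19 (PDK1), 0.37 (BNIP3L). For the SFRP2 effect on COL1 the values that turned with the GC correction and replicate block were -0.14 (PFKP), -0.077 (ENO1), 0.15 (SLC16A1), 0.20 (PDK1), 0.33 (BNIP3L). For the SFRP2 effect on COL1 the values that turned with the GC correction lacking library 3 were -0.13 (PFKP), -0.040 (PGAM1), -0.00479 (ENO1), -0.12 (PKM), 0.043 (PDK1). For the SFRP2 effect on COL1 the values that turned with the substituted library were -0.019 (PGAM1). For the SFRP2 effect on COL1 the values that turned in the second alignment were -0.13 (PGAM1). For the COL1 effect in PC3 SFRP2 cells the values that turned with the GC correction were -0.20 (ALDOA), 0.29 (SLC16A1), 0.23 (PDK1), 0.78 (BNIP3L), 0.0059 (P4HA1). For the COL1 effect in PC3 SFRP2 cells the values that turned with the GC correction and replicate block were -0.28 (ALDOA), 0.29 (SLC16A1), 0.23 (PDK1), 0.75 (BNIP3L), 0.0061 (P4HA1). For the COL1 effect in PC3 SFRP2 cells the values that turned in the second alignment were -0.00606 (PGAM1). For the COL1 effect in PC3 SFRP2 cells the values that turned with the GC correction lacking library 3 were 0.087 (SLC16A1), 0.076 (PDK1), 0.28 (BNIP3L). For the difference between the surfaces the values that turned with the GC correction were 0.50 (BNIP3L). For the difference between the surfaces the values that turned with the GC correction and replicate block were 0.47 (BNIP3L). For the difference between the surfaces the values that turned with the GC correction lacking library 3 were 0.00741 (BNIP3L). The cause was not tested. Divided by no length, the median ratios in CCP-PC3 were 2.47 for HK1 to HK2, 46.5 for LDHA to LDHB and 17.3 for SLC16A1 to SLC16A3. With 5529459 to 9975972 counts a library, members such as CA9 and EGLN1 rested on few reads.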

Other observations

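LDHA and P4HA1 were called higher on COL1 with the GC correction and not called without it (0.51 and 0.45 on the log2 scale, adjusted p = 0.0175 and 0.0186). Their uncorrected values were -0.30 and -0.54.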
